A study of Caenorhabditis elegans with 4 samples.

Results

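The binding sites described here are the NHR-11 peaks of Caenorhabditis elegans chromosome V. All peaks that the lists used here place on V were taken, whatever their strength. These were 302 of the 2197 peaks of ChIP replicate 1, 281 of the 1939 peaks of ChIP replicate 2 and 940 of the 7089 peaks of the list for the whole series, or 1523 of 11225 listed peaks. The running numbers in the peak names skip 169 values in the series list, 24 in replicate 1 and 14 in replicate 2. The chromosomes of peaks with those numbers are not known, and they are not analysed here. Where a replicate 1 peak and a replicate 2 peak had 1 bp or more in common, they were merged into a shared region, and 154 of the 1212 shared regions lay on V. Chromatin came from L3 larval hermaphrodites of strain OP305, grown at 20 °C on E. coli HB101. They carry the unc119(ed3) mutation and wgIs305, a bombarded transgene in which nhr-11 is fused to TY1, EGFP and FLAG and which also holds unc119. No mutation of the endogenous nhr-11 gene is given in the genotype. Both ChIP libraries, made with anti-GFP antibodies, and both input libraries come from this strain, and input values were not analysed here. The labels do not say whether the replicates were separate cultures, so differences between them measure only the spread between these 2 samples. They also do not give the cells in which the fusion was expressed at this stage, so a peak is an average over whole larvae.

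NHR-11 is a member of the nuclear hormone receptor family, zinc finger transcription factors that bind DNA and, in many members, respond to small lipophilic ligands. This family is greatly expanded in nematodes, and many of its genes lie on chromosome V. The C. elegans autosomes are known to have gene-dense centres, where broadly expressed and conserved genes are common, flanked by arms that recombine more, hold more repeats and carry more histone H3 lysine 9 methylation. On V the arms also hold large clusters of chemoreceptor genes. Positions of the peaks relative to genes, and their DNA sequence, were not analysed here, because no genome or annotation of WormBase WS220, the build of the peak lists, was used. All coordinates below are on that build.

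NHR-11 sites were sparse on chromosome V, and its shared regions were gathered in the middle. The lists reached position 20911152, and this span of 20.9 Mb was cut into 3 equal parts of 6.97 Mb, with borders after position 6970384 and before position 13940769; a peak was counted where its midpoint fell. The middle held 73 of the 154 shared regions (47.4%, exact 95% binomial interval 39.3 to 55.6%), where even spacing gives 33.3%. This passed the two-sided exact binomial test (p = 0.000308 after Benjamini-Hochberg adjustment over 4 sets). Density was 10.5 shared regions per Mb in the middle and 5.81 per Mb in the outer parts, a ratio of 1.80.

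Each replicate showed the same gathering by itself. In replicate 1, 143 of 302 peaks (47.4%, 41.6 to 53.2%) lay in the middle, with 20.5 peaks per Mb there and 11.4 per Mb outside it (exact binomial test, adjusted p = 9.51e-07). Replicate 2 had 124 of 281 peaks (44.1%, 38.2 to 50.1%) in the middle, with 17.8 per Mb there and 11.3 per Mb outside it (exact binomial test, adjusted p = 0.000238). The series list had 403 of 940 (42.9%, 39.7 to 46.1%), with 57.8 per Mb and 38.5 per Mb (exact binomial test, adjusted p = 4.97e-09). The series list has no ChIP library beyond the replicates' own, so it is no separate support. Neighbouring regions are not independent, so these p-values, and those of all tests over peaks below, are too small. Joining shared regions within 10000 bp into one left 45.1% in the middle (exact binomial test, adjusted p = 0.00941).

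**Figure D1:**
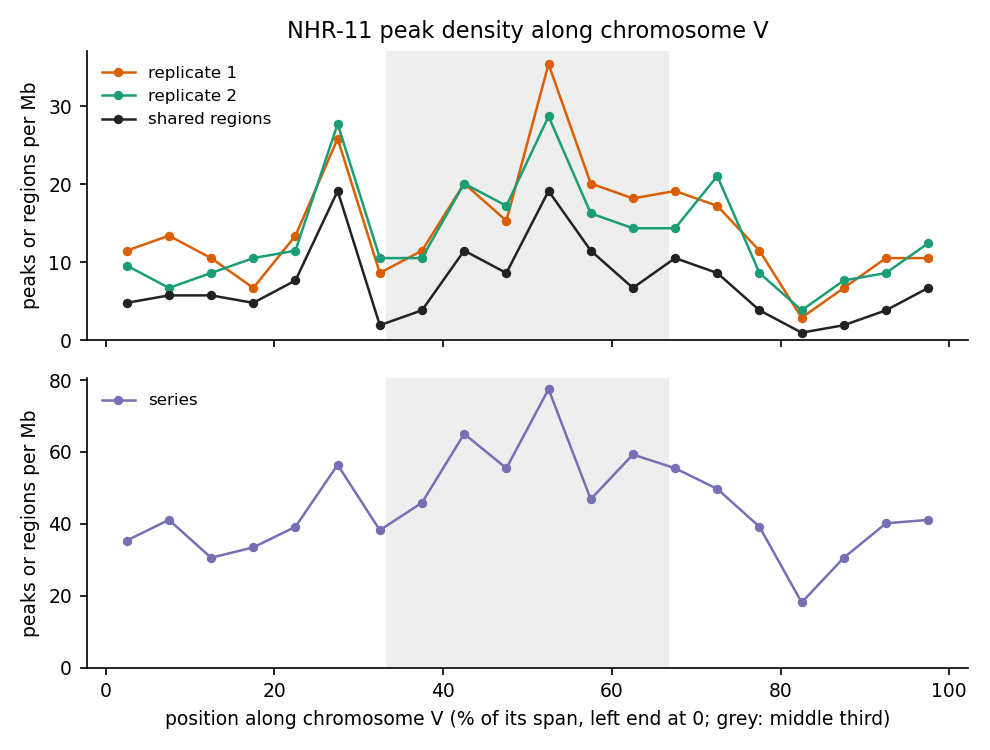
Density of listed peaks and shared regions (per Mb, y axis) in 20 equal parts of chromosome V, drawn against position in percent of the span; the grey band is the middle part. Both replicates and the shared regions peak in the same stretches, at 25 to 30% and at 50 to 55% of the span, and all 4 sets are lowest at 80 to 85%.

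Within the middle, 1 stretch was densest in every set. The interval from 10 to 11 Mb held 19 shared regions, 36 replicate 1 peaks, 30 replicate 2 peaks and 78 series peaks. Over the 20 complete 1 Mb intervals of V the means were 7.35 shared regions (SD 4.59), 14.6 replicate 1 peaks (SD 7.98), 13.4 replicate 2 peaks (SD 6.605) and 45 series peaks (SD 14.7). With this interval left out, 40% of the remaining shared regions lay in the middle, which then made up 29.99% of the length (exact binomial test, adjusted p = 0.0143); this check was chosen after the values were seen. A further dense interval lay outside the middle, from 5 to 6 Mb, with 14 shared regions, 21 replicate 1 peaks and 22 replicate 2 peaks. The order of the intervals was alike in the replicates (Spearman's rho 0.846 across 20 intervals, which share the genome sequence but not the library).

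The right part held the fewest sites. It had 30 shared regions, 68 replicate 1 peaks and 71 replicate 2 peaks, against 51, 91 and 86 in the left part. In the series list the 2 parts were nearly equal, with 263 peaks right and 274 left. Right and left did not differ past the threshold in the exact binomial test, chosen after the values were seen and adjusted over 4 sets (adjusted p = 0.103 for shared regions, 0.161 for replicate 1, 0.352 for replicate 2 and 0.666 for the series list). The longest stretch of V without a shared region ran from 16356236 to 17728583 (1372 kb) and held 6 replicate 1 peaks, 6 replicate 2 peaks and 34 series peaks. After 1 shared region, the next longest ran from 17729105 to 18581802 (853 kb), with 3 replicate 1, 6 replicate 2 and 24 series peaks. The intervals from 16 to 19 Mb held 1, 1 and 2 shared regions in turn. Towards the right end there were 4 shared regions from 19 to 20 Mb and 7 in the incomplete interval beyond 20 Mb.

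Chromosome V held 12.7% of all shared regions on 20.9% of the length (density ratio 0.609, interval 0.521 to 0.705; exact binomial test, p = 1.53e-13). With the other chromosomes pooled, the shortage touched the middle as well as the outer parts. That pool was uneven. Over whole chromosomes it ran from 11.2 shared regions per Mb on II and IV to 20.0 on I, beside 7.36 on V. The middle held 142 shared regions on I and 66 on X, beside 73 on V, on spans of unlike length. Density in the middle of V was not compared with that of single other chromosomes. Against 10.5 shared regions per Mb in the middle of V, the middles of the 5 other chromosomes together held 16.9 per Mb, a ratio of 0.619. In the outer parts V held 5.81 per Mb and the other chromosomes 11.6 per Mb, a ratio of 0.502. The share of regions in the middle was 47.4% on V and 42.2% elsewhere (447 of 1058), a difference that did not pass Fisher's exact test (adjusted p = 0.343, two-sided, over 4 sets). In replicate 1 the shares were 47.4% on V and 39.4% elsewhere (Fisher's exact test, adjusted p = 0.0194), and in replicate 2 44.1% and 41.3% (adjusted p = 0.395). The series list gave 42.9% on V and 36.2% elsewhere (Fisher's exact test, adjusted p = 0.000357). These differences are from the other chromosomes pooled, which differed among themselves. The share of shared regions was 52.9% on II, 47.0% on I and 31.7% on X. In replicate 2 it was 54.4% on II and 30.7% on X. The series share was 47.5% on II and 29.3% on X, and the replicate 1 share 46.2% on II and 29.4% on X. The gathering is therefore not called particular to V.

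**Figure D2:**
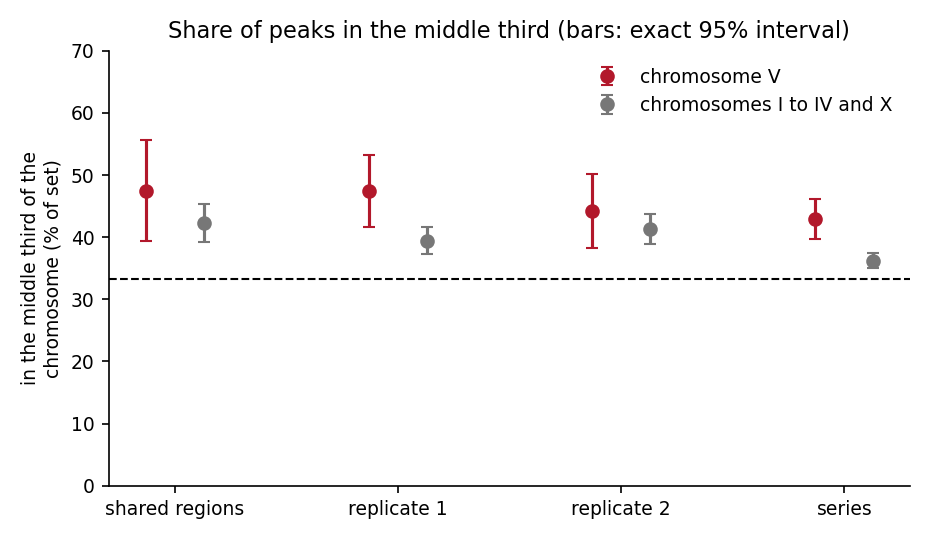
Percent of each set that lies in the middle of 3 equal parts of the chromosome, for V and for the other chromosomes; bars are exact 95% intervals and the dashed line marks 33.3%. All 4 values of V lie above the line, between 42.9% and 47.4%.

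The second question was how far the replicates named the same sites on V. In replicate 1, 155 of 302 V peaks (51.3%, 45.5 to 57.1%) overlapped a replicate 2 peak, beside 55.3% of all replicate 1 peaks in the genome. In replicate 2, 156 of 281 V peaks (55.5%, 49.5 to 61.4%) overlapped a replicate 1 peak, beside 62.9% of all its peaks. Sharing was less frequent on V than on the other chromosomes in replicate 2 (64.1% elsewhere; Fisher's exact test, adjusted over 2 lists p = 0.0124). That call was lost when overlap of at least 50% of both peaks was asked for (51.2% on V; Fisher's exact test, adjusted p = 0.182), with values under 0.0001 only (adjusted p = 0.190) and in the better-scoring 50% of each list (adjusted p = 0.0632). In replicate 1 the value elsewhere was 55.9% and the difference did not pass the test (Fisher's exact test, adjusted p = 0.135).

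Strong peaks on V were nearly always shared, and weak ones seldom. When each whole list was cut into 4 bands of equal size by significance value, the strongest band held 20.2% of V peaks in replicate 1, against 25.8% of other peaks. In replicate 2 the strongest band held 21.7% of V peaks and 25.6% of others. Of V peaks in the strongest band, 60 of 61 were shared in replicate 1 (98.4%, 91.2 to 100.0%, against 93.9% elsewhere) and 59 of 61 in replicate 2 (96.7%, 88.7 to 99.6%, against 97.6% elsewhere). In the weakest band, 20 of 88 V peaks were shared in replicate 1 (22.7%, 14.5 to 32.9%, against 25.2% elsewhere) and 24 of 76 in replicate 2 (31.6%, 21.4 to 43.3%, against 34.3% elsewhere). The gaps were wider in the bands between. In the second band 54.9% of V peaks were shared in replicate 1 and 62.5% in replicate 2, against 65.1% and 72.4% elsewhere. In the third band the shares were 43.9% and 38.9% on V, against 37.3% and 50.8% elsewhere. In all 4 bands each value from elsewhere lay within the interval of V, but in replicate 2 V was the lower in every band. With depth unknown, absence from 1 list does not show that a site was unbound in that library.

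Peaks in the middle of V were not found to be shared more often than those outside it. In replicate 1, 73 of 143 middle peaks (51.0%, 42.6 to 59.5%) and 82 of 159 outer peaks (51.6%, 43.5 to 59.6%) had a partner. Replicate 2 gave 74 of 124 (59.7%, 50.5 to 68.4%) in the middle and 82 of 157 (52.2%, 44.1 to 60.3%) outside. Neither difference passed Fisher's exact test (adjusted p = 1 for replicate 1 and 0.457 for replicate 2). The outer values average a left and a right part that were unlike. In replicate 1, 57.1% (46.3 to 67.5%) of left and 44.1% (32.1 to 56.7%) of right peaks were shared. In replicate 2 the shares were 60.5% (49.3 to 70.8%) left and 42.3% (30.6 to 54.6%) right. Left and right were not tested against each other for sharing.

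Sites called in 1 replicate alone were narrow, on V as elsewhere. The 147 V peaks of replicate 1 without a partner were 126 bp wide at the median, and the 155 shared ones 324 bp; elsewhere the medians were 155 and 331 bp. The 125 unpartnered V peaks of replicate 2 had a median of 202 bp, and its 156 shared ones 331 bp; elsewhere the medians were 204 and 344 bp. In replicate 1, 37 of the 39 V peaks under 50 bp had no partner, against 147 of 156 elsewhere. In replicate 2 all 16 V peaks under 50 bp had none, against 85 of 94 elsewhere. Few unpartnered V peaks were near misses. Of the 147 in replicate 1, 14 (9.52%, against 9.94% elsewhere) lay within 1000 bp of a peak of the other list. Of the 125 in replicate 2, 14 did (11.2%, against 11.6% elsewhere). Of the V peaks of replicate 1, 42 were stronger than its first unpartnered one, at 18967644 to 18967945 (302 bp, 3.47e-08, place 387 of the whole list), whose nearest replicate 2 peak was 81585 bp away. In replicate 2, 48 V peaks were stronger than the first unpartnered one, at 17721755 to 17722102 (348 bp, 1.80e-08, place 371), with a replicate 1 peak 6729 bp away. Both sites lay in the sparse right part of V, and both overlapped a series peak, with values of 2.90e-10 and 8.65e-14.

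The third question was which V sites were strongest. Values here are the authors' significance values, in which lower is stronger, and places count within the whole replicate lists. The first site of V was also the widest of V, though shared regions on the other chromosomes reached 11472 bp. At 6221098 to 6225834 (4737 bp) replicate 1 listed 2 peaks, the better with 5.19e-36 (place 22), and replicate 2 listed 2 peaks, the better with 1.01e-30 (place 34). Only 313 bp away, the region at 6226148 to 6229938 (3791 bp) had 9.89e-27 in replicate 1 (place 39) and 1.45e-31 in replicate 2 (place 31). These neighbours held places 1 and 3 on V.

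Together they span 8841 bp, and replicate 1 peaks covered 86.4% of it, replicate 2 peaks 81.2% and series peaks 92.2%. The most densely covered other window of that length on V, among windows that begin at a peak, reached 28.3% in replicate 1 and 29.8% in replicate 2, starting at 2131160 and 2131175, and 55.2% in the series list, starting at 10712394. In replicate 1 the 3 peaks were 2801, 1051 and 3791 bp wide, in replicate 2 they were 2528, 1985 and 2666 bp wide, and the outermost edges differed between replicates by 162 bp on the left and 140 bp on the right. The series list drew the borders differently, with peaks of 4720, 568 and 2875 bp. Read depth and copy number at this stretch were not analysed here, so its width and place are those of the lists.

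**Figure D3:**
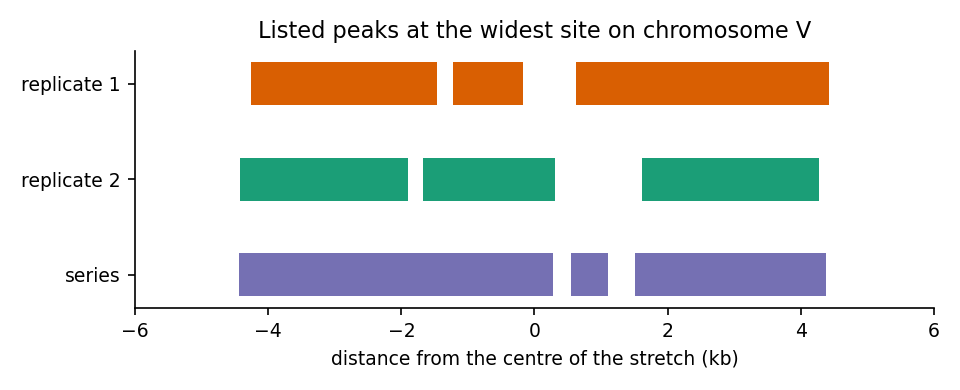
Peaks listed at the widest site of chromosome V in replicate 1, replicate 2 and the series list, as bars from start to end; the x axis is the distance in kb from the centre of the 8841 bp stretch. Each list holds 3 peaks there, and the outer edges nearly coincide while the inner borders differ.

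The next sites were narrower than this pair. The region at 9546765 to 9547189 (425 bp), the first in the middle part, tied with the widest site at a summed rank of 56 and was put second by position. It was listed with 1.89e-30 in replicate 1 (place 31) and 3.42e-34 in replicate 2 (place 25). In replicate 2 it was the strongest peak of the chromosome. The region at 1151181 to 1152027 (847 bp) had 3.26e-27 and 3.11e-30 in replicates 1 and 2, at places 37 and 35. At 5049295 to 5049903 (609 bp) the values were 3.04e-23 and 5.00e-32, at places 48 and 29, the widest difference in value between replicates among V regions. Both lists placed the region at 2672599 to 2672983 (385 bp) at 46, with 1.23e-24 and 4.48e-26.

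Places 7 to 10 on V lay mostly in the middle. The region at 13869530 to 13869923 (394 bp) had 9.76e-22 in replicate 1 and 2.92e-28 in replicate 2. The first region of the right part was at 20773505 to 20774526 (1022 bp), near the end of the span, with 7.41e-22 and 6.87e-22. The region at 10897198 to 10897551 (354 bp) had 2.72e-21 and 1.81e-20, and that at 11082345 to 11082818 (474 bp) had 8.06e-19 and 9.15e-25. All of these first 10 regions were among the first 74 peaks of replicate 1 and the first 65 of replicate 2. Places 11 to 20 were taken by regions starting at 9343766, 14200004, 14685588, 2131160, 10466473, 12026726, 3870394, 10174400, 7727792 and 10858019.

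Of the first 20 regions of V, 10 lay in the middle and 10 outside it (7 left, 3 right). Of the first 50, 25 lay in the middle and 25 outside it. The middle is 33.3% of the span and held 47.4% of all shared regions of V. Among the first 100 shared regions of the genome 13 lay on V, beside its 12.7% of all shared regions. The first V region held place 26 of the genome.

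**Figure D4:**
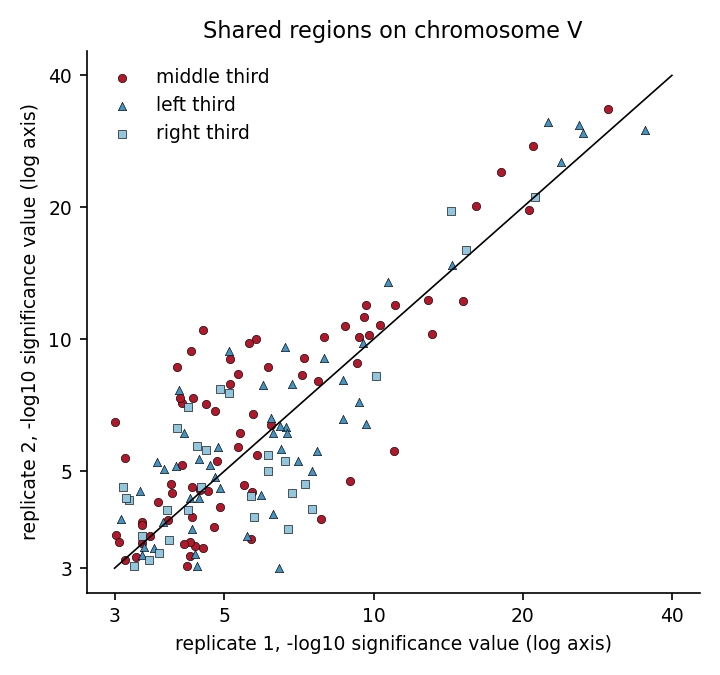
Strength of the 154 shared regions of chromosome V in replicate 1 (x axis) and replicate 2 (y axis), as −log10 of the significance value on log axes, with symbols for the part of the chromosome; the line marks equal values. Regions of all 3 parts lie along the line, and those farthest to the upper right come from the middle and the left.

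Strength and width followed each other between replicates. Across the 154 regions Spearman's rho between replicates was 0.703 for the values and 0.845 for the widths. The corresponding values over the other chromosomes were 0.723 and 0.836, all given as a description. In 152 of the 154 regions 1 peak of each list met 1 peak of the other. Starts differed between replicates by a median of 31 bp and ends by 37.5 bp. Shared regions on V were 137 to 4737 bp wide, with a median of 373.5 bp, against 381.5 bp elsewhere.

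The middle was not stronger than the outer parts in both replicates. In replicate 1 the median −log10 value of shared regions was 5.14 in the middle and 5.66 outside, while in replicate 2 it was 6.38 in the middle and 5.27 outside. Of the 73 middle regions, 49 (67.1%, 55.1 to 77.7%) had the stronger value in replicate 2, against 41 of 81 (50.6%, 39.3 to 61.9%) of the outer regions. Among all V peaks the order turned in the same way: 16.8% of middle and 23.3% of outer peaks of replicate 1 belonged to its strongest band, against 28.2% of middle and 16.6% of outer peaks in replicate 2. No order of strength between middle and outer parts therefore held in both libraries. The left and right parts were unlike, however, and the right part had the lowest median in both. Over all V peaks of replicate 1 the median −log10 value was 3.94 right, 4.21 middle and 4.44 left. In replicate 2 it was 4.08 right, 4.64 middle and 4.46 left. These differences were not tested.

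Shared regions on V lay farther apart than elsewhere. The median distance to the nearest other shared region was 24100 bp, against 13500 bp on the other chromosomes, and 53 of 154 regions (34.4%) had a neighbour within 10000 bp, against 44.3% elsewhere. Lower density alone lengthens such distances. Joined at 10000 bp, the regions formed 21 groups of 2 or more and left 101 single regions. The group with the most regions lay at 10852049 to 10874478 in the middle part and held 5. Its strongest region, at 10858019 to 10858948, had 2.11e-10 in replicate 1 and 1.11e-12 in replicate 2, and the other 4 held places 83 to 127 on V. A group of 4 lay at 10715701 to 10731354. Its first region, at 10715701 to 10716137, had 5.05e-11 and 1.78e-11. Of the 8 groups with 3 or more regions, 5 lay in the middle and 3 in the left part. Of all 21 groups, 10 lay in the middle and 11 outside it, and the middle held 47.4% of all shared regions of V.

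The last question was how the series list covered V. Of the 940 series peaks on V, 368 (39.1%, 36.0 to 42.4%) met a peak of 1 or both replicates, beside 36.9% of all series peaks, and 155 (16.5%, 14.2 to 19.0%) overlapped both, beside 17.3%. The 368 were 317.5 bp wide at the median, and the 572 peaks with no replicate peak 144 bp. Of the 368, 46.7% (41.5 to 52.0%) lay in the middle, as did 40.4% (36.3 to 44.5%) of the 572, and these intervals overlap. The series list held all 154 shared regions of V. It held 269 of the 302 replicate 1 peaks (89.1%, 85.0 to 92.4%, against 94.1% elsewhere) and 263 of the 281 replicate 2 peaks (93.6%, 90.1 to 96.2%, against 95.4% elsewhere). Among peaks with no partner in the other replicate, 77.6% of the 147 of replicate 1 met a series peak, against 86.6% elsewhere, and 85.6% of the 125 of replicate 2, against 87.2% elsewhere. These differences from elsewhere were not tested. In 153 of the 154 shared regions of V the series value was stronger than that of both replicates. For this count, and for that of all 154 held, no value from elsewhere is given here. Neither is called particular to V.

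Over the whole series list, V peaks met a replicate peak less often than peaks on II, III and X (39.1% against 45.9%; Fisher's exact test, adjusted over 15 comparisons p = 0.000729) and more often than peaks on I and IV (30.2%, adjusted p = 6.67e-07). Within bands of equal rank, the gap between V and I and IV was widest in the middle bands. In the strongest band the share was 94.0% on V, 97.4% on II, III and X (Fisher's exact test, adjusted p = 0.0699) and 83.3% on I and IV (adjusted p = 0.000416). In the second of 4 bands of the whole series list by significance value, 135 of 210 V peaks (64.3%, 57.4 to 70.8%) overlapped a replicate peak. The share was 66.0% (62.0 to 69.8%) on II, III and X, and the difference from V did not pass Fisher's exact test (adjusted p = 0.673). On I and IV it was 21.2% (18.7 to 23.9%; Fisher's exact test against V, adjusted p = 1.80e-31). In the next band V had 25.4% (20.1 to 31.2%), II, III and X 23.0% (19.8 to 26.5%) and I and IV 3.95% (2.77 to 5.46%; Fisher's exact test against V, adjusted p = 7.90e-21). In the weakest band the shares were 4.17% on V, 6.79% on II, III and X (Fisher's exact test, adjusted p = 0.156) and 0.781% on I and IV (adjusted p = 0.000729). These comparisons, and the grouping of II, III and X and of I and IV, were chosen after the values were seen. No test had been planned for this overlap, since the series list holds the same ChIP libraries. The p-values therefore describe gaps already seen and give no independent support. Values for single chromosomes are not given here. The cause of the difference from I and IV was not tested.

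**Figure D5:**
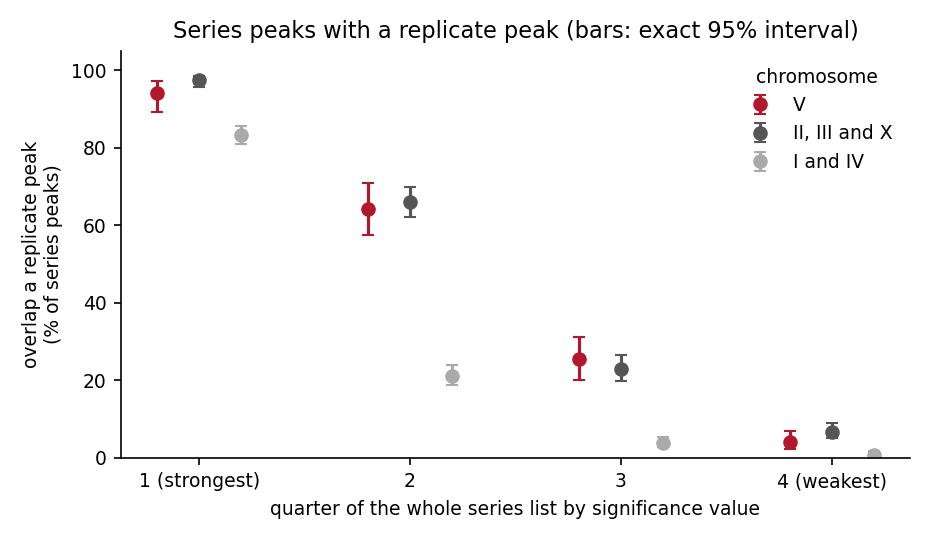
Percent of series peaks that overlap a peak of at least 1 replicate, by band of the whole series list (1 strongest to 4 weakest), for V, for II, III and X together and for I and IV together; bars are exact 95% intervals. In bands 2 and 3, V stands beside II, III and X, far above I and IV.

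The strongest series peak on V without a replicate peak was only 3 bp long. It lay at 10045645 to 10045647 with a value of 3.56e-11, at place 1142 of the series list. Of the series peaks on V, 141 of 940 (15.0%) were under 50 bp, against 14.8% elsewhere. No shared region on V was shorter than 137 bp.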

How the data were processed

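The measurement was ChIP-seq of GFP-tagged NHR-11, deposited as 3 peak lists, 2 of single ChIP libraries and 1 of the series. The build is WormBase WS220, per the file headers, and PeakSeq is named as the source of each peak. The authors deposited 1 p-value or q-value for each peak (which is not stated), all under 0.001. The aligner, the control, the threshold and how the series list was made are not given in the sources used here. Per-sample depth is unknown, since the lists hold no reads, so intervals cover counting error over peaks only.

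Peaks with column 1 equal to V were taken, ranks were counted over whole lists, and a chromosome's span ran from 1 to the highest listed coordinate. Shares were tested with two-sided exact binomial tests and Fisher's exact tests, and given exact (Clopper-Pearson) 95% intervals. Regions were named by a rule: the first 20 of V by summed rank, full values for 10, the first of each part of V, the first unpartnered peak of each replicate and the group with the most regions. The group of 4, the 3 bp series peak, the dense 1 Mb intervals and the longest empty stretches were named after their values were seen. The members, lists and tests were chosen with earlier results of these data known. The code was tested on simulated lists. Python 3.11.15, numpy 2.4.6, pandas 2.3.3, scipy 1.17.1 and matplotlib 3.10.9 were used. Alternatives covered overlap, value limit, list, joining and borders.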

Additional observations from a re-analysis of the deposited data

How the results depend on the processing

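Of 55 values under alternative settings, 45 left the direction and the call as they were or moved within the limits set. These 45 include whether the first 10 V regions stayed shared, which all 10 did in every setting. For the limits on value and on rank that outcome was fixed in advance, since those regions were picked by rank. The low density of V (ratio 0.609) and the gathering in its middle kept their calls in every alternative run. With 1 replicate list alone the density ratio was 0.658 to 0.694 and the middle share 44.1 to 47.4%. The difference of the middle share between V and the other chromosomes, 5.15 percentage points in shared regions, ran from 2.81 to 7.93 with 1 replicate list alone and passed Fisher's exact test without replicate 2 (adjusted p = 0.0194). With the series list, 6.69 points passed Fisher's exact test too (adjusted p = 0.000357). For sharing of replicate 2 peaks on V, the lower share than elsewhere no longer passed with overlap of at least 50% of both peaks (51.2%), a value under 0.0001 (62.0%) or the better-scoring 50% of each list (62.4%). In replicate 1 that last setting turned the direction (62.9% on V), with neither setting passing the test. Taking the middle 50% of the span turned the difference in sharing between middle and outer replicate 1 peaks from −0.523 to 6.44 percentage points, without a call. Matching only the better-scoring 50% of each list gave 82 shared regions on V, and the full lists 154. Of series peaks on V, 77.4% overlapped a replicate peak in the better-scoring 50% of that list and 45.1% with peaks under 50 bp left out, instead of 39.1%. Leaving out short peaks and the interval from 10 to 11 Mb was chosen after the data were seen. No paired analysis was possible because no input list was used and no test was made between groups of samples. With depth unknown, nothing can be said of sites below the lists' limit.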
